A study of Homo sapiens with 18 samples.

Results

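YAP1 and WWTR1, the gene of TAZ, were followed with their partner TEAD1, the kinases LATS1 and LATS2, and 5 genes known as outputs or regulators of the pathway, CTGF, CYR61, ANKRD1, AMOTL2 and AJUBA. These 10 genes were listed by name, with earlier results of these data known, and all 10 were found among the 58302 genes of the mRNA sequencing table. TPC1 is a line from a human papillary thyroid carcinoma, and D11 is 1 clone of TPC1 made Dicer1 (+/-) with CRISPR-Cas9, so an effect of the genotype and one of the clone cannot be told apart. Each line was left non-transfected (NT), received a negative control siRNA (NC) or received siRNA against Dicer1 (siDicer), both siRNAs at 5 nM, and RNA was taken on day 4. There were 3 libraries in each of the 6 groups. Following the study, NT and NC libraries were pooled within a line as a control group of 6. D11 carries a Dicer1 mutation in every one of its groups, its controls included.

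In the Hippo pathway, the kinases STK3 and STK4 activate LATS1 and LATS2, which phosphorylate YAP and TAZ and so keep them out of the nucleus. Nuclear YAP and TAZ do not bind DNA themselves and act with TEAD proteins on genes such as CTGF and CYR61. These steps are mostly changes of proteins, while the values here are transcript levels only. Dicer1 is the enzyme that cuts miRNA precursors, and many transcripts of the pathway are known miRNA targets.

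Expression is given as reads per 20 M aligned reads, called units here, and the libraries held 11.3 to 23.2 M reads with a median of 15.9 M, so that 1 read was worth 0.861 to 1.77 units. DICER1 was at 1397 to 1582 units in TPC1 NT, 1901 to 2492 units in NC and 246 to 395 units in siDicer. In D11 it was at 655 to 1157 units in NT, 1407 to 1536 units in NC and 277 to 451 units in siDicer. It was called lower in both lines (limma, log2 change -2.64 with adjusted p = 0.000337 in TPC1 and -1.77 with adjusted p = 0.000649 in D11) and in D11 against TPC1 (log2 difference -0.68, adjusted p = 0.00561). Against NT alone the DICER1 change after siDicer was -2.35 in TPC1 and -1.41 in D11. Between NC and NT its log2 difference was 0.58 in TPC1 and 0.71 in D11, not called (limma adjusted p = 0.133 and 0.153). For 12 of 18 samples the title and the description give conflicting groups. The description was used, as the table columns match it. Of the thyroid markers, PAX8, FOXE1, HHEX and TG were at 10 units or more in all 18 libraries, while TSHR and SLC5A5 did not exceed 2 units and NKX2-1 was at 0. Of 6 epithelial markers KRT7, KRT8 and KRT18 were at 150 units or more, while CDH1, EPCAM and KRT19 did not exceed 8 units. The 3 endothelial markers summed to at most 18 units. Of 3 leukocyte markers CD3E was at 0 in all 18 libraries and PTPRC did not exceed 4 units, while CD68, a lysosomal protein abundant in macrophages, was at 763 to 1960 units. Of 5 fibroblast markers DCN was at 0 in all 18 libraries and COL1A2 did not exceed 2 units, while COL1A1 was at 35 to 134, PDGFRB at 12 to 167 and LUM at 0 to 517 units. The 5 summed to 184 to 266 units in the TPC1 controls and 383 to 796 units in TPC1 siDicer, and to 55 to 133 units in the D11 controls and 151 to 253 units in D11 siDicer. The part of CD68 or of that sum in the results was not tested. The labels do not say whether replicates came from separate cultures, so p-values measure the spread between these libraries only. In bulk samples, fewer cells of a type and less RNA per cell cannot be told apart.

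After siDicer WWTR1 was lower in both lines, while YAP1 did not pass the test in either. YAP1, the transcriptional coactivator of the pathway, was at 4179, 5535 and 4166 units in TPC1 NT replicates 1, 2 and 3, at 4262, 4693 and 4433 units in NC and at 3869, 4428 and 4100 units in siDicer. In D11 it was at 3014, 4221 and 4169 units in NT, 3944, 4599 and 4143 units in NC and 3843, 4299 and 3966 units in siDicer. The siDicer libraries lay among the controls in D11, and in TPC1 they overlapped them. The log2 change against control was -0.13 ± 0.10 (SE, 3 against 6 libraries) in TPC1 and 0.018 ± 0.12 in D11, with 95% intervals of -0.35 to 0.086 and -0.24 to 0.27, and neither passed the limma test (adjusted p = 0.406 and 0.935).

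WWTR1 encodes TAZ, the paralog of YAP. It was at 10750, 9364 and 10400 units in TPC1 NT, 9631, 8688 and 9524 units in NC and 5816, 8466 and 6306 units in siDicer. D11 libraries held 8823, 11025 and 10249 units in NT, 9602, 8846 and 9294 units in NC and 6598, 7776 and 6256 units in siDicer. Every siDicer library was below every control library of its line, with replicate 2 the nearest to the controls in both lines. WWTR1 was the member whose siDicer libraries lay wholly below the controls in each line, against 9.91% of all tested genes in TPC1 and 14.1% in D11. The log2 change was -0.52 ± 0.12 in TPC1 (adjusted p = 0.0153) and -0.49 ± 0.10 in D11 (adjusted p = 0.00459), which passed the limma test but not the 1.5-fold minimum of a call. Among all tested genes, 7.94% were lower at an adjusted p under 0.05 at any fold in TPC1, and 12.8% in D11. Against NC alone the TPC1 value was -0.45 with adjusted p = 0.0751, and without TPC1 siDicer replicate 2 it was -0.68 with adjusted p = 0.00137, past the 1.5-fold minimum.

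Levels of different genes were compared per kb of exon. In the NT groups WWTR1 was at 1218 ± 86.3 (SD, n = 3) units per kb in TPC1 and 1201 ± 134 in D11, against 733 ± 125 and 602 ± 108 units per kb for YAP1. The ratio of WWTR1 to YAP1 per kb was 1.94, 1.28 and 1.89 in TPC1 NT, 1.71, 1.40 and 1.62 with NC siRNA, and 1.14, 1.44 and 1.16 with siDicer. D11 ratios were 2.21, 1.97 and 1.86 for NT cells, 1.84, 1.45 and 1.69 with NC siRNA and 1.30, 1.37 and 1.19 with siDicer. All 3 siDicer ratios were below all 6 control ratios in D11, while in TPC1 the replicates numbered 2 overlapped. The ratio was chosen after the values were seen, so its values are a description. The mean in D11 was 1.29 ± 0.088 (SD, n = 3) after siDicer and 1.84 ± 0.26 (n = 6) in the controls, and in TPC1 it was 1.25 ± 0.17 and 1.64 ± 0.26.

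**Figure D1:**
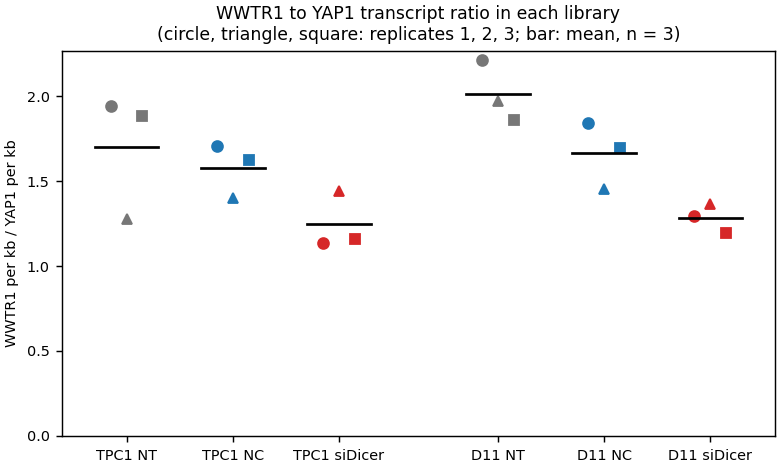
Ratio of WWTR1 to YAP1 level per kb of exon (vertical axis, no unit) in each of the 18 libraries, with circles, triangles and squares for replicates 1, 2 and 3 and a bar for the mean of 3. In D11 the siDicer ratios lie between 1.19 and 1.37, below all D11 controls, while TPC1 siDicer replicate 2 at 1.44 lies above TPC1 NT replicate 2 at 1.28.

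TEAD1, a DNA-binding partner of YAP and TAZ, was at 5394, 5962 and 4749 units in TPC1 NT, 7285, 6011 and 6813 units in NC and 6894, 5560 and 6428 units in siDicer. Its D11 levels were 3313, 5703 and 4226 units in NT, 6597, 7137 and 6389 units in NC and 6050, 6748 and 6187 units in siDicer. Every NC library was above every NT library of its line, and siDicer overlapped NC in both lines. Against the joint control the log2 change after siDicer was 0.069 ± 0.13 in TPC1 (adjusted p = 0.767) and 0.23 ± 0.20 in D11 (adjusted p = 0.441).

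Of the LATS kinases, LATS2 had NC libraries wholly above NT in both lines, and LATS1 did not. LATS2 was at 1012, 990 and 886 units in TPC1 NT, 2017, 1348 and 1981 units in NC and 2120, 1219 and 2038 units in siDicer. In D11 the levels were 1069, 1070 and 994 units in NT, 1694, 1381 and 2042 units in NC and 1818, 1717 and 2135 units in siDicer. All NC and all siDicer libraries were above all NT libraries of their line. The share of all tested genes for NC is given below, and that for siDicer against NT was not counted. Against the joint control the change after siDicer was 0.42 ± 0.29 on the log2 scale in TPC1 (adjusted p = 0.357) and 0.50 ± 0.21 in D11 (adjusted p = 0.0976), neither past the test. Against NC alone it was -0.011 ± 0.24 in TPC1 (adjusted p = 0.983) and 0.16 ± 0.14 in D11 (adjusted p = 0.493), and against NT alone 0.86 ± 0.21 (adjusted p = 0.0481) and 0.85 ± 0.12 (adjusted p = 0.00136), called in both lines.

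LATS1 was at 693 to 838 units in TPC1 NT, 796 to 917 units in NC and 751 to 969 units in siDicer. In D11 its range was 557 to 747 units in NT, 744 to 932 units in NC and 776 to 939 units in siDicer. The siDicer libraries overlapped the joint controls in both lines, and the log2 change after siDicer was 0.13 ± 0.11 in TPC1 and 0.22 ± 0.16 in D11 (adjusted p = 0.493 and 0.339).

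CTGF and CYR61 encode secreted matricellular proteins and are textbook targets of YAP, TAZ and TEAD, and ANKRD1, a nuclear ankyrin repeat protein, is another. The TEAD core motif GGAATG was searched on both strands in the 250 bases before each RefSeq start site (GRCh38.p14), with 12 windows for 8 of the 10 genes. It was in 11.9% of the 35116 windows of all genes. The CTGF window held 3 matches, at -169, -104 and -95 from the start, and 0.0826% of all windows held 3 or more. The ANKRD1 window held 2 matches at -220 and -128, and 0.940% of all windows held 2 or more. One of the AMOTL2 windows held 1 match at -69, on the other strand. One of the AJUBA windows held 1 match at -59 and the YAP1 window 1 at -162, so 5 of the 12 windows held a match. Of these the windows of CTGF, ANKRD1 and AMOTL2 are shown, with the matches in capitals, because they belong to outputs of the pathway and, unlike that of AJUBA, overlap no annotated untranslated region. The motif overlaps no other motif that was searched. A match is a description of the letters and not a binding site.
CTGF (gene CCN2), chr6:131951373-131951622, minus strand: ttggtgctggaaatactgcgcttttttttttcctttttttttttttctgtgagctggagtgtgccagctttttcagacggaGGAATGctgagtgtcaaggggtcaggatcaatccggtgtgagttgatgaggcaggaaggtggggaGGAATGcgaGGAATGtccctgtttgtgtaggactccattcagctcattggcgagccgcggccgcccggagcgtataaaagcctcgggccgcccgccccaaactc
ANKRD1, chr10:90921088-90921337, minus strand: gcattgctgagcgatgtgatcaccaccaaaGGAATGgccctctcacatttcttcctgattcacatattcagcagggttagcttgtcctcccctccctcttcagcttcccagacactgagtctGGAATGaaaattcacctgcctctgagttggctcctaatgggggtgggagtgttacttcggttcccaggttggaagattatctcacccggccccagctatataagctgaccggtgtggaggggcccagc
AMOTL2, chr3:134374448-134374697, minus strand: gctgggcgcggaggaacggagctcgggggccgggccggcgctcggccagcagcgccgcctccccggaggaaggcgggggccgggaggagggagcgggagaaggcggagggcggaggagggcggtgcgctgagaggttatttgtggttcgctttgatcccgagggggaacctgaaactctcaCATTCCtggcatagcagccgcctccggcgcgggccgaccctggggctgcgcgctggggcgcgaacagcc

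CTGF was at 792, 954 and 578 units in TPC1 NT, 1091, 588 and 1066 units in NC and 1489, 864 and 1581 units in siDicer. The D11 libraries gave 1403, 1071 and 897 units in NT, 1212, 905 and 1261 units in NC and 1433, 1660 and 1404 units in siDicer. In D11 every siDicer library was above every control, by 1 unit at the nearest, and in TPC1 siDicer replicate 2 lay inside the control range. The log2 change was 0.63 ± 0.25 in TPC1 (95% interval 0.078 to 1.18, adjusted p = 0.117) and 0.43 ± 0.14 in D11 (0.12 to 0.74, adjusted p = 0.0499). The D11 value passed the limma test but not the 1.5-fold minimum, and over 18 alternatives its adjusted p ran from 0.0151 to 0.180. The span of CTGF overlaps that of the antisense gene LINC01013, and whether their exons overlap was not tested. Since the sources do not say how strand was treated in counting, the CTGF level is uncertain to that extent.

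CYR61 was at 4785, 5277 and 3685 units in TPC1 NT, 7647, 5080 and 7279 units in NC and 9474, 4326 and 9350 units in siDicer. In D11 it was at 6551, 5017 and 5038 units in NT, 6196, 4971 and 7555 units in NC and 7192, 6938 and 8951 units in siDicer. In TPC1 the siDicer group held both the highest values and one of the lowest. The log2 change was 0.41 ± 0.28 in TPC1 (adjusted p = 0.345) and 0.40 ± 0.14 in D11 (adjusted p = 0.0642), neither past the test. With replicate number as a block, the D11 value had adjusted p = 0.0339 and stayed below 1.5-fold.

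ANKRD1, whose window holds 2 matches, was close to undetected. It was at 3, 0 and 2 units in TPC1 NT, 11, 2 and 5 with NC siRNA and 11, 0 and 11 with siDicer, and at 5, 4 and 2 in D11 NT, 10, 4 and 3 with NC siRNA and 16, 0 and 9 with siDicer. In 10 of 18 libraries it was at or under the value of 3 reads (2.58 to 5.32 units, counting error only), and 3 libraries were at 0. It passed the filter of 10 units in 3 libraries for TPC1 siDicer against control, through 1 NC and 2 siDicer libraries, and not for D11. A difference was not detectable at this depth, and no fold is given.

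AMOTL2 and AJUBA are both outputs and regulators: angiomotin-like 2 binds YAP and TAZ at cell junctions, and the LIM protein AJUBA binds LATS kinases. AJUBA was at 2478, 2091 and 1994 units in TPC1 NT, 3081, 2143 and 2959 units in NC and 4918, 2594 and 4728 units in siDicer. D11 libraries held 2665, 2277 and 2511 units in NT, 2820, 2449 and 3241 units in NC and 4358, 4187 and 4972 units in siDicer. All D11 siDicer libraries were above all D11 controls, whereas TPC1 siDicer replicate 2 lay among its controls. AJUBA, CTGF and, on the lower side, WWTR1 were the 3 members of 9 whose D11 siDicer libraries did not overlap the controls, against 25.1% of all tested genes in either direction. AJUBA was called higher in both lines, 1.62-fold in TPC1 (log2 change 0.70 ± 0.21, limma adjusted p = 0.0494) and 1.70-fold in D11 (0.77 ± 0.11, adjusted p = 0.000809). It was the only member called in either line, 1 of 10 tested in TPC1, where 7.38% of all tested genes were called, and 1 of 9 tested in D11, where 12.0% were called. In the higher direction these shares of all genes were 3.22% and 5.26%. The D11 call was made in all 18 alternatives (adjusted p 0.000475 to 0.0104), and the TPC1 call in 8 of 19 (adjusted p 0.00376 to 0.233). Without TPC1 siDicer replicate 2 the TPC1 log2 change was 0.99, and without siDicer replicate 1 or 3 it was 0.53 or 0.56 and not called. Calls over all genes fell as well, from 594 higher and 769 lower to 159 and 287 without siDicer replicate 1. Without siDicer replicate 3 they were 168 and 259. The AJUBA call in TPC1 was also lost without any one of NT replicates 1, 2 and 3 or NC replicates 2 and 3. Its log2 changes were then 0.64 to 0.75, with limma adjusted p of 0.0518 to 0.0923. AJUBA overlaps another gene on its own strand, and 8 of the 10 genes, all but CYR61 and ANKRD1, overlap an annotated gene on some strand. These overlaps are of whole gene spans with introns, so some of their reads may be uncertain. Whether exons overlap was not tested.

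AMOTL2 was at 2688, 1876 and 1854 units in TPC1 NT, 4203, 2017 and 4122 units in NC and 5097, 2142 and 5234 units in siDicer. Its D11 levels were 3195, 2273 and 2334 units in NT, 4228, 2582 and 4394 units in NC and 4174, 4266 and 5329 units in siDicer. The siDicer libraries overlapped the controls in both lines. The log2 change was 0.55 ± 0.35 in TPC1 (adjusted p = 0.313) and 0.58 ± 0.21 in D11 (adjusted p = 0.0626). With the replicate block the D11 adjusted p was 0.0444, below 1.5-fold, and with TMM scaling AMOTL2 was called in D11 (log2 change 0.62, adjusted p = 0.0496). It was also called there without NC replicate 1 (0.67) or NC replicate 3 (0.68), and LATS2 without NC replicate 3 (0.63).

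**Figure D2:**
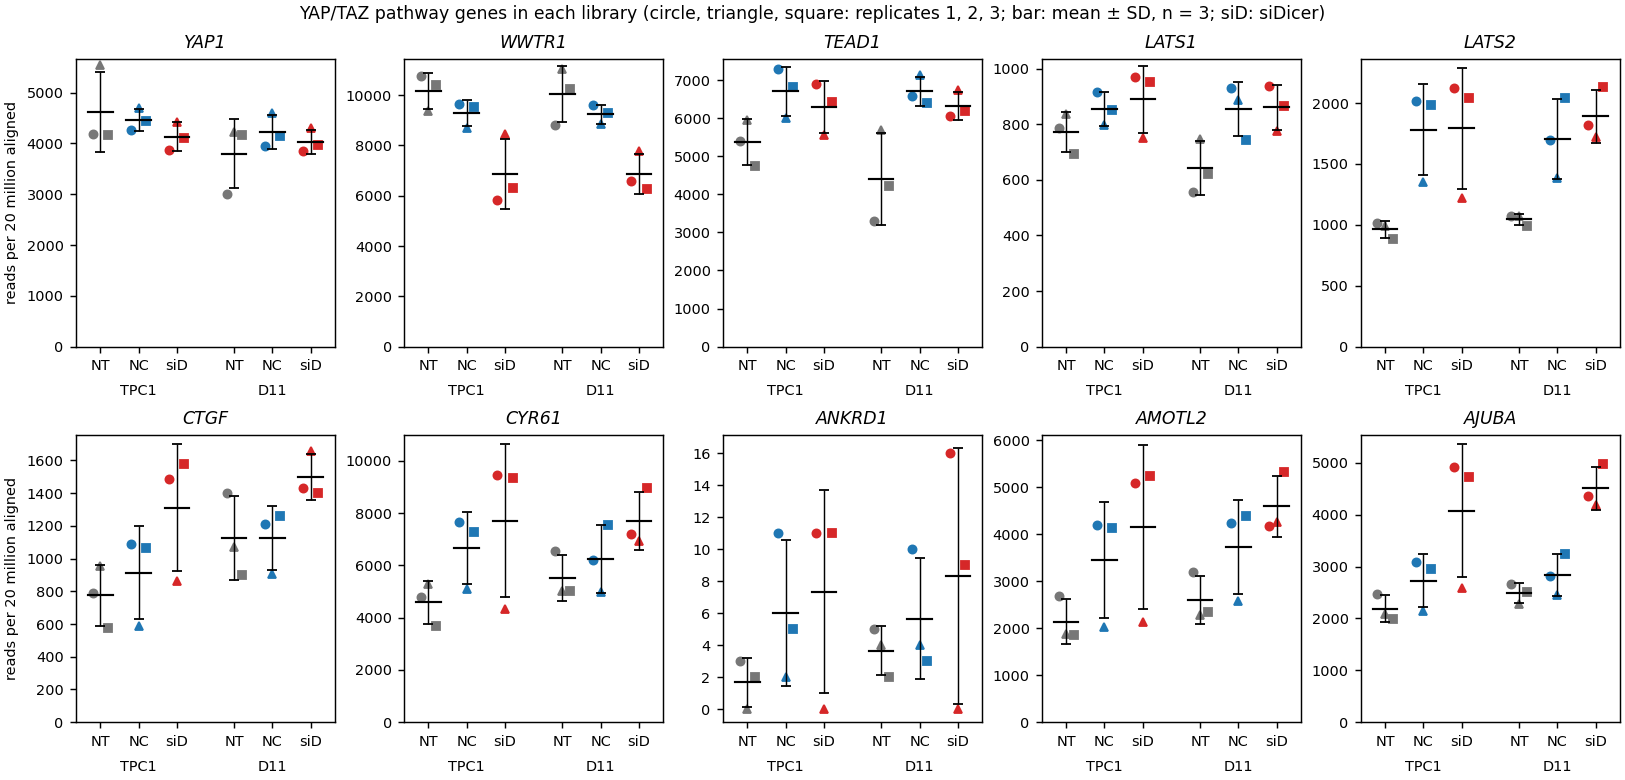
Level of each of the 10 genes (vertical axes, reads per 20 M aligned reads) in the 18 libraries by line and condition, with circles, triangles and squares for replicates 1, 2 and 3 and black bars for the mean and SD of 3. WWTR1 is lowest in the siDicer groups of both lines, LATS2 is lowest in NT, AJUBA is highest in siDicer, and triangles lie low in the NC groups and in TPC1 siDicer for the 5 genes LATS2, CTGF, CYR61, AMOTL2 and AJUBA.

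Leaving out ANKRD1, the median log2 change of the 9 other members in TPC1 was 0.41, with 7 above 0 and 2 below, beside -0.037 over all tested genes. In D11 the median of the same 9 members was 0.40, with 8 above 0 and 1 below, beside -0.040 over all tested genes. By the adjusted p alone, AJUBA was higher and WWTR1 lower in TPC1, and AJUBA and CTGF were higher and WWTR1 lower in D11. Of all tested genes, 5.88% were higher by this rule in TPC1 and 9.38% in D11. With the replicate block the D11 counts were 4 higher and 1 lower, CYR61 and AMOTL2 being added, while 27.0% of all tested genes passed in either direction.

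**Figure D3:**
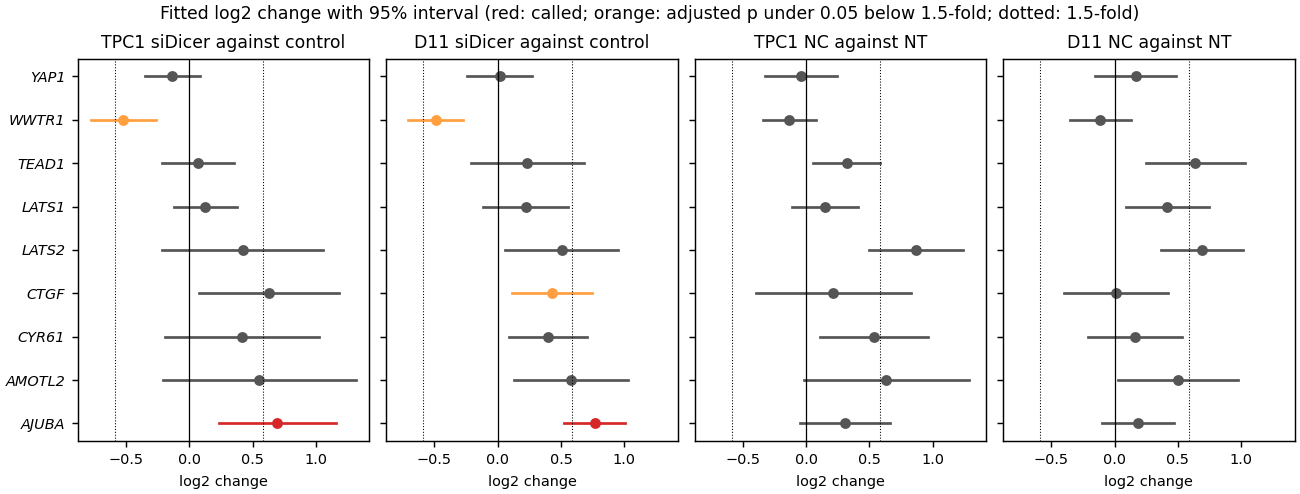
Fitted log2 change with its 95% interval for 9 genes (rows) in 4 comparisons (panels), red where called, orange where the adjusted p was under 0.05 below 1.5-fold, with dotted lines at 1.5-fold. AJUBA is called in both siDicer panels at 0.70 and 0.77, WWTR1 lies at -0.52 and -0.49, and LATS2 has the largest values of the NC panels at 0.87 and 0.69.

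Whether transfection with the control siRNA moved these genes was asked by NC against NT, which share their libraries with the siDicer comparisons. The study transfected siRNA with Lipofectamine RNAiMAX and NT cells were non-transfected, so the siRNA and the reagent cannot be told apart. No member was called in either line by limma, where the calls made up 0.111% of all tested genes in TPC1 and 0.350% in D11. At an unadjusted p under 0.05 there were 3 of 9 members in TPC1 and 4 of 9 in D11, all higher in NC, against 11.1% and 13.6% of all tested genes, and voom on recovered reads called none. LATS2 had a log2 difference of 0.87 ± 0.16 in TPC1 (adjusted p = 0.0976) and 0.69 ± 0.14 in D11 (adjusted p = 0.0960). TEAD1 had 0.32 ± 0.11 in TPC1 (adjusted p = 0.362) and 0.64 ± 0.17 in D11 (adjusted p = 0.172). LATS2 and TEAD1 were the 2 members whose NC libraries all lay above the NT libraries, in TPC1 (8.20% of all tested genes) and in D11 (10.8%). With the replicate block LATS2 was called in both lines (adjusted p = 0.00350 in TPC1 and 0.0276 in D11), AMOTL2 in TPC1 (log2 difference 0.63, adjusted p = 0.0370) and TEAD1 in D11 (adjusted p = 0.0284), when calls made up 3.14% of all tested genes in TPC1 and 1.75% in D11.

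The choice of control changed which members were called after siDicer. Against NC alone, no member was called in TPC1, with 1 of 10 at an unadjusted p under 0.05 (29.1% of all tested genes), and AJUBA alone in D11 (log2 change 0.67 ± 0.11, adjusted p = 0.00496), where 5.93% and 8.86% of all tested genes were called. Against NT alone, LATS2 was called in TPC1, and AJUBA (0.86), LATS2 (0.85) and AMOTL2 (0.83, adjusted p = 0.00457) in D11, where 5.97% and 17.1% of all tested genes were called. In TPC1 AJUBA was thus called against neither control alone, with 0.85 against NT (limma adjusted p = 0.0676). The median log2 change of the 9 members other than ANKRD1 was 0.051 against NC and 0.68 against NT in TPC1, and 0.16 and 0.48 in D11. WWTR1 had a negative value with either control in both lines, but in TPC1 neither control alone passed the test, with -0.45 against NC (adjusted p = 0.0751) and -0.58 against NT (adjusted p = 0.0519). In D11 it was at -0.43 (adjusted p = 0.0137) and -0.54 (adjusted p = 0.0102).

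**Figure D4:**
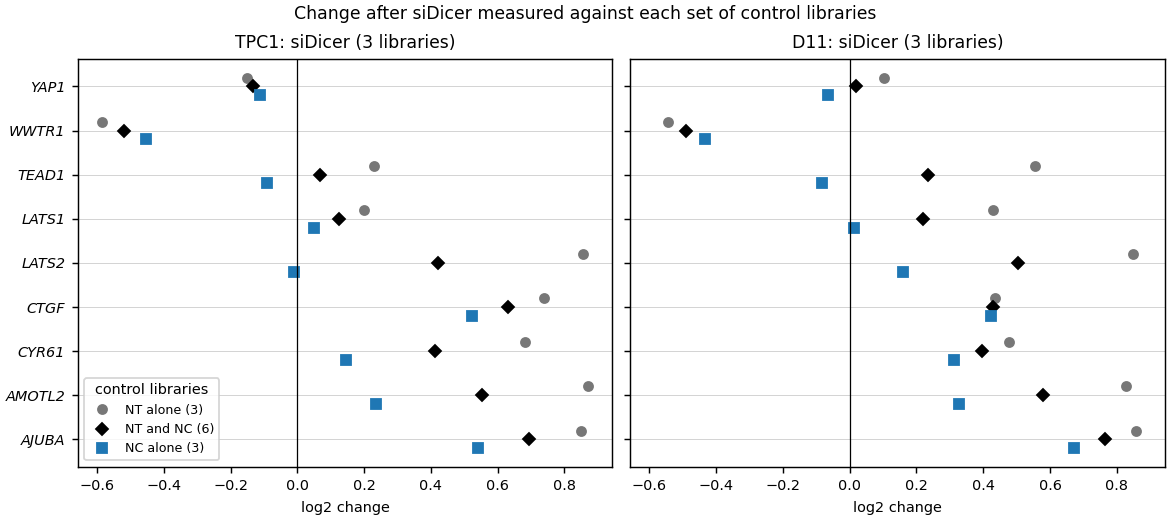
Log2 change after siDicer (horizontal axes) of 9 genes against NT alone (grey circles), NT and NC together (black diamonds) and NC alone (blue squares), in TPC1 (left) and D11 (right), 3 siDicer libraries each. LATS2 moves from 0.86 against NT to -0.011 against NC in TPC1 and from 0.85 to 0.16 in D11, whereas CTGF in D11 stays near 0.43 with each control.

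In several libraries numbered 2, LATS2 and 4 outputs of the pathway were low. In TPC1 NC, TPC1 siDicer and D11 NC alike, replicate 2 was the lowest of its group for LATS2, CTGF, CYR61, AMOTL2 and AJUBA, which is 5 of 9 members. Among 12508 genes with a mean of at least 100 units, 19.3% had the same pattern. The NT groups did not share it: replicate 2 was lowest for 1 of 9 members in TPC1 NT, where it was highest for CTGF and CYR61, and for 3 of 9 in D11 NT. In D11 siDicer replicate 2 was lowest for LATS1, LATS2, CYR61 and AJUBA but highest for CTGF. In TPC1 siDicer replicate 2, DICER1 stood at 21.1% of the control mean, against 13.6% and 13.1% in replicates 1 and 3, and in D11 at 38.1% against 25.1% and 23.4%. The part of DICER1 or of the replicate number in this pattern was not tested, and it was noticed after the values were seen. Without the 3 TPC1 libraries numbered 2, WWTR1 (log2 change -0.73), CTGF (0.84) and AJUBA (0.90) were called after siDicer in TPC1, among 14.3% of all tested genes. LATS2, CTGF, CYR61 and AMOTL2 were then called in NC against NT (1.08, 0.67, 0.83 and 0.90), among 2.49% of all tested genes. Of single libraries, leaving out TPC1 NC replicate 2 brought a call of LATS2 in NC against NT (1.06), and leaving out D11 NT replicate 2 a call of TEAD1 (0.84).

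Between the lines, without siDicer, no member was called. In the 12 control libraries limma called 0 of 9 members in D11 against TPC1, with 1 at an unadjusted p under 0.05 (9.85% of all tested genes) and none called by voom, while 1.02% of all tested genes were called. The median log2 difference of the members was 0.031, beside -0.0072 over all genes. CTGF had the largest, 0.44 ± 0.17 (95% interval 0.072 to 0.81, adjusted p = 0.392), with 578 to 1091 units in TPC1 and 897 to 1403 in D11. YAP1 was at -0.18 ± 0.10 (-0.40 to 0.030, adjusted p = 0.559) and WWTR1 at -0.014 ± 0.067 (-0.16 to 0.13, adjusted p = 0.953). No member had all its D11 control libraries on one side of all its TPC1 control libraries, where 0.308% of all tested genes were wholly higher in D11 and 0.951% wholly lower.

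No difference between the lines in the response to siDicer passed the test either, but this test could miss differences. Its controls joined NT and NC libraries, so the gaps between NT and NC counted as spread. The interaction of line and siDicer passed the limma test for 0 of 10 members and for 0 of 19181 genes, with 133 genes (0.693%) at an unadjusted p under 0.05 and 152 by voom, none of them called, so that 0% of genes were called. The difference of the log2 changes, D11 minus TPC1, was 0.070 ± 0.25 for AJUBA (95% interval -0.45 to 0.59), 0.030 ± 0.16 for WWTR1 (-0.29 to 0.35) and -0.20 ± 0.31 for CTGF (-0.85 to 0.44). For AMOTL2 it was 0.025 ± 0.44 (-0.89 to 0.94), an interval wide enough to hold changes of the size seen in either line. For DICER1 itself it was 0.88 ± 0.36 (0.13 to 1.62), with the smaller fall in D11, and it was not called. An equal knockdown in the lines can therefore not be assumed. The share of 0.693% is below what the same unadjusted rule would pass on average if no gene differed, so the test was conservative.

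By level per kb, CYR61 led in all 6 groups, from 1239 ± 220 (SD, n = 3) units per kb in TPC1 NT to 2087 ± 794 in TPC1 siDicer, and WWTR1 followed. Only in TPC1 NT did the libraries of these 2 genes overlap. LATS2, LATS1 and ANKRD1 came last in each group, in this order, and LATS1 did not overlap its neighbours in any group. Between WWTR1 and LATS2 the order differed: in the NT and NC groups YAP1 came next, while in the siDicer groups AJUBA did, at 693 ± 219 units per kb in TPC1 and 766 ± 70.1 in D11. There AJUBA overlapped WWTR1 and AMOTL2 in both lines, and in TPC1 also YAP1, TEAD1 and CTGF. The lengths are of all annotated exons, so a gene read mostly as a short transcript is understated.

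Of 43 further genes of the pathway, taken from general knowledge of it, 19 act upstream of YAP and TAZ. In TPC1, 2 of the 19 were called higher and 2 lower after siDicer, and in D11 3 higher and 1 lower, with median log2 changes of 0.11 and 0.20. The lower calls made up 4.16% of all tested genes in TPC1 and 6.75% in D11, and the higher calls 3.22% and 5.26%. STK4, the kinase MST1 at the head of the cascade, was at 1557 to 1772 units in the TPC1 controls and 788 to 964 units in siDicer, and at 1227 to 1795 and 771 to 939 units in D11. It fell by 0.97 on the log2 scale in TPC1 (SE 0.086, adjusted p = 0.000423) and by 0.89 in D11 (SE 0.12, adjusted p = 0.000583), with no overlap in either line. FRMD6, a FERM domain protein upstream of the kinases, was at 742 to 1502 units in the TPC1 controls and 3411, 1384 and 2922 units in siDicer, replicate 2 lying inside the control range. It rose 2.28-fold in TPC1 (log2 change 1.19 ± 0.29, adjusted p = 0.0215) and 2.46-fold in D11 (1.30 ± 0.19, adjusted p = 0.000875). Against NC alone its TPC1 value was 0.89 with adjusted p = 0.114, and without siDicer replicate 1 or 3 it was 0.93 or 1.04 and not called. AMOTL1, the angiomotin paralog, rose by 0.64 in both lines (SE 0.077 and 0.12, adjusted p = 0.00106 and 0.00321), and in D11 it was at 0.56, below 1.5-fold, without NT replicate 1. Against NC alone it was at 0.58 in TPC1 and 0.53 in D11, past the limma test (adjusted p = 0.00641 and 0.00544) but not 1.5-fold. Named after their values were seen, DCHS1 was called lower in TPC1 (log2 change -0.66, 32 to 79 units) and FAT4 higher in D11 (0.71, adjusted p = 0.0461), both protocadherins. Neither was called against NC alone, DCHS1 being at -0.76 (adjusted p = 0.0656) and FAT4 at 0.37 (adjusted p = 0.0431).

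Of 7 TEAD and VGLL genes, VGLL1, VGLL2 and VGLL3 were at 0 or 1 unit in all libraries and 4 were tested. VGLL4, which competes with YAP and TAZ for TEAD, was at 904 to 1157 units in the TPC1 controls and 1564 to 1713 units in siDicer, and at 706 to 1115 and 1407 to 1821 units in D11. It rose by 0.67 ± 0.10 on the log2 scale in TPC1 (adjusted p = 0.00255) and by 0.80 ± 0.15 in D11 (adjusted p = 0.00291). TEAD4 was called lower in D11 (-0.60 ± 0.12, adjusted p = 0.00414), and in TPC1 it was at -0.37 ± 0.10 (adjusted p = 0.0395), below 1.5-fold. The D11 call of TEAD4 was lost below 1.5-fold without NT replicate 1 (-0.57) or siDicer replicate 1 (-0.47). Against NC alone no gene of this list was called in D11, with VGLL4 at 0.58 (adjusted p = 0.00770) and TEAD4 at -0.57 (adjusted p = 0.0197), both just below 1.5-fold, and VGLL4 was called in TPC1 (0.60).

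Of 17 further targets, limma called 2 higher and 1 lower in TPC1, and 6 higher and 1 lower in D11, while 3.22% of all tested genes were called higher and 4.16% lower for TPC1, and 5.26% and 6.75% for D11. The medians were 0.50 and 0.60 beside -0.037 and -0.040 over all genes. AXL, a receptor tyrosine kinase, went the other way from most of the list. It was at 6432 to 11481 units in the TPC1 controls and 2906, 4573 and 4080 units in siDicer, and at 8801 to 12335 units in the D11 controls and 3223, 6106 and 3857 units in siDicer. It fell by 1.30 ± 0.19 on the log2 scale in TPC1 and by 1.39 ± 0.17 in D11 (adjusted p = 0.00255 and 0.000282). RBMS3, an RNA-binding protein, rose by 0.83 in TPC1 (adjusted p = 0.0252) and FJX1, a secreted glycoprotein, by 0.94 (adjusted p = 0.0261). Neither was called without siDicer replicate 1 or 3, nor RBMS3 without NT replicate 1 or 3. In D11, MYOF, a membrane repair protein, rose by 0.68 (adjusted p = 0.00239) and ASAP1, an Arf GTPase-activating protein, by 0.69 (adjusted p = 0.00249). In TPC1 these 2 genes were at 0.46 and 0.56, past the limma test (adjusted p = 0.0255 and 0.00667) and below 1.5-fold. Named after their values were seen, RBMS3, ARHGEF17, CCDC80 and PTPN14 were the other 4 genes called higher in D11. Against NC alone, 3 were called higher in D11 (FJX1, ASAP1 and RBMS3), with a list median of 0.35, and against NT alone 9, with a median of 0.72. MYOF was then at 0.55, ARHGEF17 at 0.45, CCDC80 at 0.39 and PTPN14 at 0.35 against NC, none of them called. In TPC1 RBMS3 was not called against NC (0.79, adjusted p = 0.0795), while FJX1 (1.16), ASAP1 (0.63) and FOXF2 were, and against NT alone none was called higher.

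**Figure D5:**
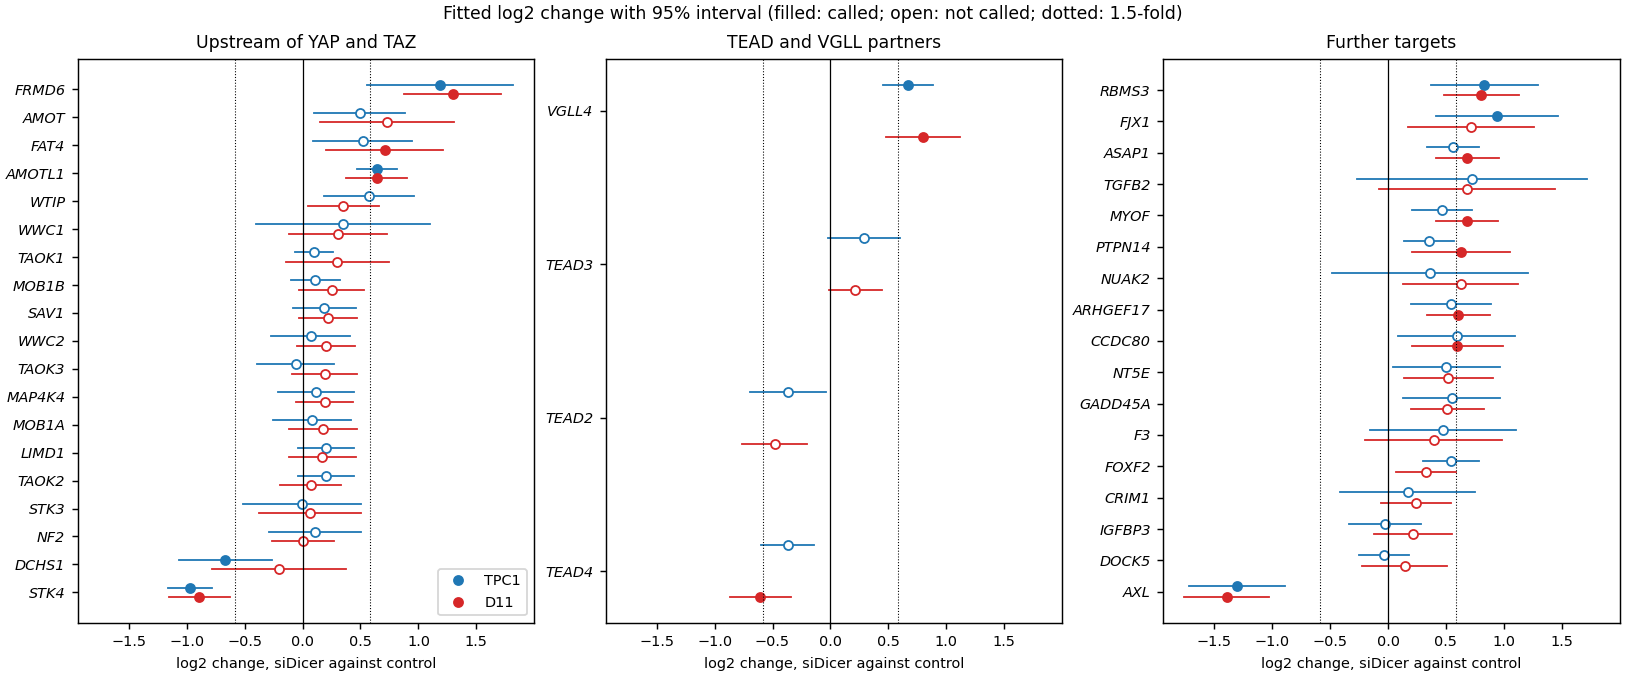
Fitted log2 change after siDicer with its 95% interval for the tested genes of the 3 further lists (rows), TPC1 in blue and D11 in red, filled where called, with dotted lines at 1.5-fold. STK4 and AXL lie below -0.5 in both lines, and FRMD6, AMOTL1 and VGLL4 above 0.5 in both.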

How the data were processed

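mRNA was sequenced as paired-end reads from stranded poly-A libraries. Per the study's methods, the authors used STAR 2.5.3a for alignment to GRCh38 and HTSeq 0.9.1 for counts on Ensembl genes. How strand was treated is not given in the sources used here. The deposited values are a normalised score: reads scaled to 20 M aligned reads per library and rounded up, so depth was recovered from the step of 1 read (in 16 libraries where it exceeds 1, 99.4% to 99.9% of values above 0 equal a whole number of reads times that step, rounded up). The study's methods name a count test with edgeR, which scores do not allow, so limma was planned and used in its place.

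Values were analysed as log2(value + 1), which understates changes of low genes, for genes at 10 or more in at least 3 libraries of a comparison, with limma 3.58.1 (R 4.3.3, trend) and Benjamini-Hochberg adjustment over all tested genes. A call needs an adjusted p under 0.05 and a fold of at least 1.5. The scripts were tested on simulated data. A further thyroid marker is not reported here. The 10 genes, the lists (STK4 and 18 others upstream, 7 TEAD and VGLL genes, 17 targets) and the tests were chosen with earlier results of these data known. Named genes are the 10, DICER1, and of each list the called genes with the 3 smallest adjusted p in each siDicer comparison.

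Deviations from group means of same-numbered libraries correlated above 0.1 in 9 of 9 pairs in D11 (0.108 to 0.504) and 8 of 9 in TPC1 (lowest 0.0994). With genes of mean 100 or more it was 8 of 9 (lowest 0.0752) and 9 of 9. Of pairs with different numbers, 3 of 18 were above 0.1 in each line (-0.419 to 0.206 in D11 and -0.526 to 0.195 in TPC1, all genes of the fit). By these values both lines could be read as paired, but the main fits of both lines hold no replicate term. Adjusted p-values are therefore unpaired unless the replicate block is named. Values with the block are given as an alternative for both lines, and the meaning of a shared replicate number is unknown. Positions and exon lengths are from GENCODE 44 (GRCh38) and promoter windows from RefSeq (GRCh38.p14).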

Additional observations from a re-analysis of the deposited data

Results flagged for a closer look

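None of the 10 genes had a highest or lowest library far from the rest in the 6 control libraries of a line. In 20 sets of 6, no gap exceeded the 95% critical value of Dixon's test. The siDicer groups were not in this check, so it could not flag TPC1 siDicer replicate 2. It joined NT and NC, and for LATS2 and TEAD1, with NT wholly below NC, that split can hide a gap. No interaction of line and siDicer passed the limma test.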

How the results depend on the processing

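In TPC1 siDicer against control, 1 member was called (AJUBA), with 0 called without the low-value filter, with a pseudocount of 0.1 and against NC alone, 3 without the TPC1 replicates numbered 2, and 0 to 4 when 1 library was left out, 4 without TPC1 siDicer replicate 2. Calls over all genes moved too in TPC1, from 594 higher and 769 lower to 844 and 1250 without siDicer replicate 2. They were 159 and 287 without siDicer replicate 1, and 168 and 259 without siDicer replicate 3. In D11, 1 member was called, 2 with TMM scaling, 3 against NT alone, and 1 to 3 when 1 library was left out. In NC against NT, 0 were called in each line. TPC1 gave 2 with the replicate block, 1 with all 18 libraries in one fit, 4 without the replicates numbered 2 and 0 to 1 leaving 1 library out. D11 gave 2 with the replicate block, 1 with all 18 libraries and 0 to 1 leaving 1 out. Over all genes, the 18-library fit of NC against NT called 65 higher and 81 lower in TPC1 and 111 and 91 in D11. The main fits called 6 and 14 in TPC1 and 27 and 36 in D11. With TMM scaling, 1135 genes were called higher and 1061 lower in D11 siDicer against control, beside 969 and 1243 in the main fit. D11 against TPC1 and the interaction stayed at 0 in every alternative run, 0 to 0 leaving 1 out, while calls among all genes in D11 against TPC1 went from 191 to 385 with the replicate number as a term shared by the lines. The replicate block changed no other call of a member. Directions reversed for small values: against NC alone TEAD1 (-0.092) and LATS2 (-0.011) in TPC1, and YAP1 (-0.066) and TEAD1 (-0.084) in D11; YAP1 in D11 siDicer (-0.062 to 0.059 leaving 1 library out, below 0 without NT replicate 1 or siDicer replicate 2); YAP1 in TPC1 NC against NT (-0.11 to 0.096 leaving 1 out, above 0 without NT replicate 2; 0.059 without the replicates numbered 2); and CTGF in D11 NC against NT (-0.0039 with TMM, -0.14 to 0.18 leaving 1 out, below 0 without NC 1, NC 3, NT 2 or NT 3). The causes were not tested. Of 937 values of single genes under alternatives, 868 kept direction and call, 32 lost a call, 24 gained one and 13 reversed. Leaving out the libraries numbered 2 and NT alone in the interaction were chosen after seeing the data. Among the 10 genes depth limited ANKRD1.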

Other observations

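Among the further pathway genes, some stood apart between NC and NT. STK3, the kinase MST2, was at 880, 1163 and 881 units in TPC1 NT and 589, 595 and 545 units in NC, and at 772, 926 and 879 units in D11 NT and 508, 514 and 544 units in NC, with no overlap in either line. Its log2 difference was -0.75 ± 0.13 in TPC1 (limma, adjusted p = 0.0925) and -0.71 ± 0.12 in D11 (adjusted p = 0.0480), called in D11. Its paralog STK4 was at -0.012 ± 0.091 and 0.12 ± 0.14 in the same comparisons. Of all tested genes, 8.33% in TPC1 and 9.03% in D11 lay wholly lower in NC than in NT. After siDicer STK3 was at 637, 893 and 722 units in TPC1 and 613, 761 and 731 units in D11. All of these were above the NC libraries of their line, and the share of all tested genes with siDicer wholly above NC was not counted. TGFB2, a secreted growth factor listed among the targets, had the largest positive difference of its list, 1.16 ± 0.26 in TPC1 (adjusted p = 0.152) and 1.18 ± 0.26 in D11 (adjusted p = 0.107). With the replicate block it was called in both lines (adjusted p = 0.000917 and 0.00615). FJX1 had negative differences between NC and NT, -0.44 in TPC1 (adjusted p = 0.514) and -0.89 in D11 (adjusted p = 0.0597). Its siDicer libraries of 1122 to 1986 units in TPC1 and 1419 to 1786 units in D11 were all above the NC libraries (559 to 836 and 611 to 820 units). For this too the share of all tested genes was not counted. These genes were named after their values were seen.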
